A study of Homo sapiens with 9 samples.

Results

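The transcripts of H69 cells given laminin 511-E8 were compared directly with those of H69 cells given acetazolamide, with no control library in the contrast. H69 is an immortalized line of human cholangiocytes, the epithelial cells that line the bile ducts, and the labels give its genotype as wild type. Of the 9 RNA sequencing libraries, the 6 compared here are the 3 of cells that received recombinant human laminin 511-E8 at 0.25 µg/cm2 and the 3 of cells that received 10 µM acetazolamide. The other 3 are from control cells given DMSO, which entered the fit to estimate the spread between libraries and are shown for reference. Each well received 100000 cells at seeding, confluency was reached over 48 h, and treatment lasted another 48 h with fresh medium and treatment after 24 h. The labels do not say whether the treated wells also received DMSO, so vehicle and treatment cannot be told apart in any value set against the controls. The replicates are called biological by the submitters, but all come from 1 line, and the p-values measure the spread between cultures and no spread between donors.

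Laminin 511 is a trimer of the alpha 5, beta 1 and gamma 1 chains found in basement membranes, and its E8 fragment is the truncated form that integrins bind. Integrins pass the contact with matrix on to the cytoskeleton and to kinases that act on growth and on the response to cytokines. Acetazolamide inhibits carbonic anhydrases, the enzymes that interconvert carbon dioxide and bicarbonate, and cholangiocytes use bicarbonate to make bile alkaline and to shield their apical surface from bile acids. The comparison thus sets an addition to the matrix beside an inhibitor of an enzyme.

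The labelled cell type was checked against its markers. KRT7, KRT19, KRT8, KRT18, EPCAM, CDH1 and SOX9 each had at least 48 counts in every library. The hepatocyte markers TTR and APOA1, the endothelial marker CDH5 and the T cell marker CD3E were at 0 throughout, and the sum of the 3 endothelial markers did not exceed 1.58 CPM (a gene's count relative to the total count of the library) in a treated library. The 5 hepatocyte markers ALB, ASGR1, APOA1, TTR and CYP3A4 summed to at most 0.244 CPM, but of 29 genes in a wider hepatocyte list 6 were expressed enough to be tested, among them APOB at 72.3 to 79.9 CPM, CPS1 at 23.4 to 27.0 CPM and FGG at 11.6 to 21.6 CPM. Total counts ranged from 16494684 to 39518899 in the treated libraries, so that 3 counts, the limit that a count of 0 allows, correspond to 0.0759 to 0.182 CPM, which covers counting error only. Mitochondrially encoded genes took 11.4% ± 0.177 of the counts with laminin 511-E8 and 10.6% ± 1.16 with acetazolamide (SD, n = 3, exact two-sided permutation test, p = 0.4, the smallest possible p being 0.1).

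The treated libraries of each group differed in how their counts depended on the GC content of the transcripts. For each library, the deviation of each gene from its mean over the 9 libraries was followed along GC content by local regression. From genes under 40% GC (2530 genes) to genes over 60% GC (1931 genes), the mean trend rose by 0.94 on the log2 scale in acetazolamide library 3, by 0.64 in laminin library 2 and by 0.21 in acetazolamide library 1. It dropped by 0.67 in acetazolamide library 2, by 0.42 in laminin library 3 and by 0.33 in laminin library 1. Each group therefore held libraries of both kinds, and the group means of 0.16 ± 0.81 for acetazolamide and -0.04 ± 0.59 for laminin differed by less than the spread within groups (SD, n = 3, exact two-sided permutation test, p = 0.8). Results are therefore given both as deposited and with the trend of each library removed.

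**Figure D1:**
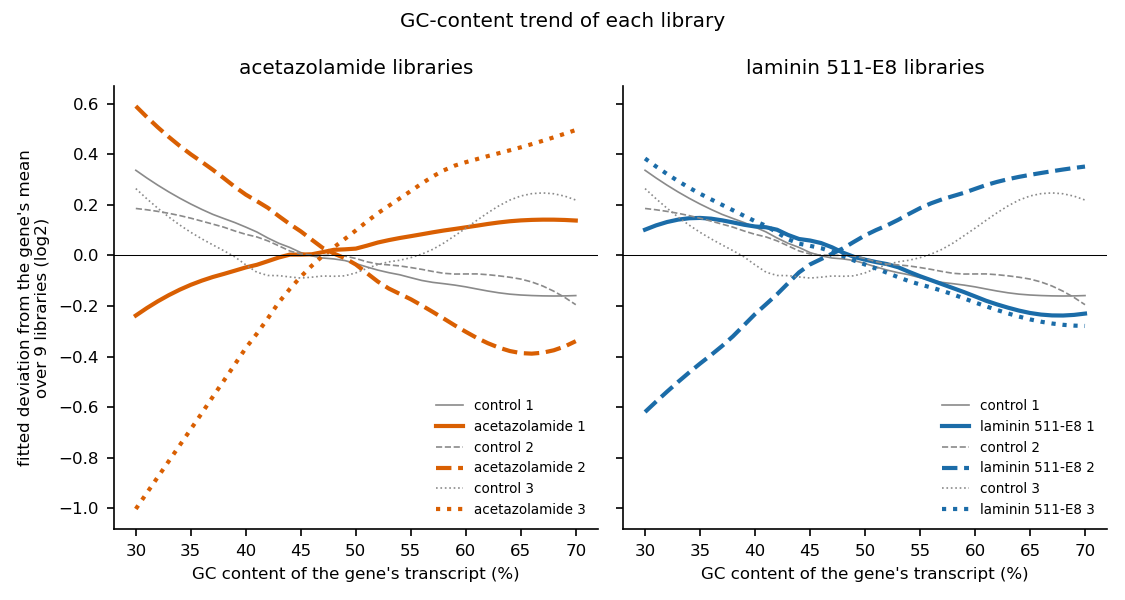
Fitted trend of each library with GC content: the horizontal axis is the GC content of the longest transcript of a gene in percent, the vertical axis is the fitted log2 deviation from the gene's mean over 9 libraries, with acetazolamide libraries (orange) and laminin 511-E8 libraries (blue) over the 3 controls (grey). Acetazolamide library 3 and laminin library 2 climb by 0.94 and 0.64 between the lowest and highest GC bands, whereas acetazolamide library 2 falls by 0.67.

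With the counts as deposited, 0 of 15997 genes (0%) passed an adjusted p of 0.05 in edgeR's quasi-likelihood test with Benjamini-Hochberg adjustment, and the lowest adjusted p was 0.714. At an unadjusted p under 0.05 there were 374 genes, of which 156 were higher with laminin 511-E8 (0.975%) and 218 lower (1.36%). DESeq2 called 19 genes and limma voom 0 in the same counts, with 329 and 348 at an unadjusted p under 0.05. The 3 libraries of 1 group lay wholly above the 3 of the other in 952 genes (5.95%).

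With the GC trend removed, 24 of 15737 genes (0.153%) passed. Of these, 7 were higher with laminin 511-E8 (0.0445%) and 17 were lower (0.108%). The median standard error of the log2 fold change was 0.208 as deposited and 0.123 after removal, while the median absolute fold change went from 0.104 to 0.0864. Groups that did not overlap were found in 1890 genes (12.0%), and 404 genes (2.57%) were higher and 438 (2.78%) lower at an unadjusted p under 0.05. In the deposited counts all 24 genes had an unadjusted p under 0.05 and the same direction, and their fold changes differed between the fits by at most 0.12 on the log2 scale. Both fits use the same libraries, so this is no separate support. In RNA from whole cultures, fewer cells that express a gene and less of its RNA per cell cannot be told apart.

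The count of 24 changed when libraries were left out. It was 0 without acetazolamide library 1, without acetazolamide library 3, without laminin library 1 or without laminin library 3, 2 without laminin library 2 and 19 without acetazolamide library 2. A fit on the 6 treated libraries alone called 13 genes, 4 higher and 9 lower, of which 12 were among the 24. DESeq2 with the same GC correction called 92, which included all 24. Every one of the 24 kept its direction in each alternative in which it was tested. They were picked on the same libraries, and in all 24 the treated groups did not overlap after removal. A kept direction is therefore largely fixed by that choice and is no separate support.

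**Figure D2:**
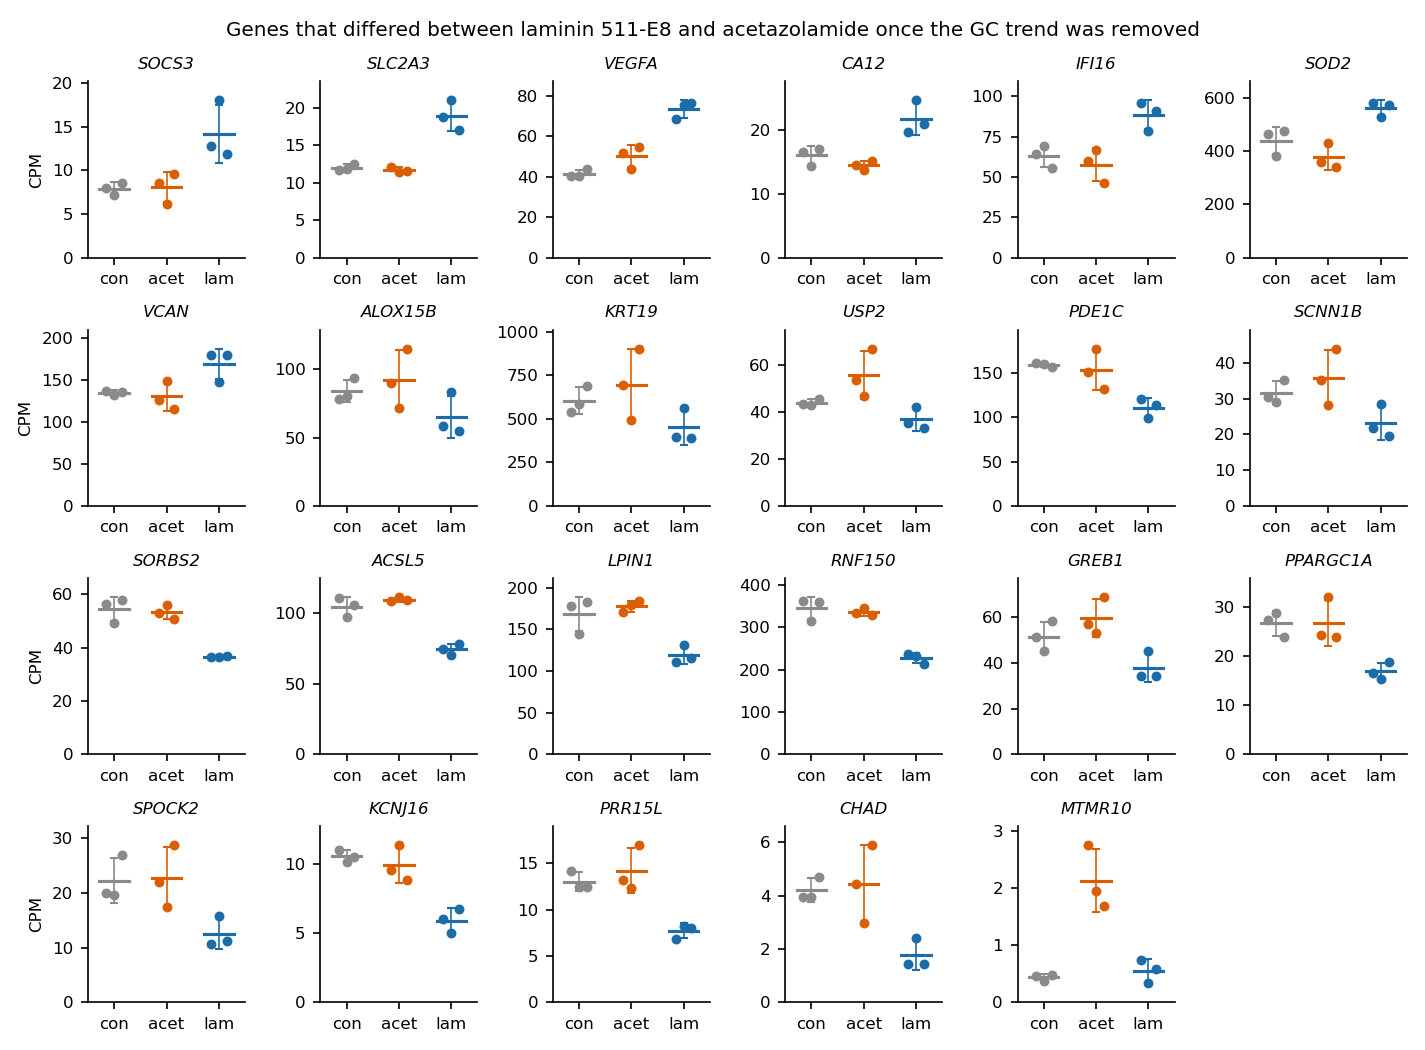
Expression of 23 of the 24 genes in every library: each panel is a gene, the vertical axis is CPM as deposited and starts at 0, points are libraries of control (con, grey), acetazolamide (acet, orange) and laminin 511-E8 (lam, blue), bars are means and whiskers are SD (n = 3). On the corrected log2 scale, not plotted here, laminin 511-E8 lies farther from control than acetazolamide in all but MTMR10. In the plotted CPM, USP2 also goes the other way, with means of 43.9 (control), 55.6 (acetazolamide) and 36.8 (laminin 511-E8).

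For most of the called genes described below, a lack of overlap in deposited CPM between the treatments was a condition for being named. It is therefore no separate support for a difference. Genes of glucose uptake, oxygen response and acid handling were among those higher with laminin 511-E8. SLC2A3 encodes the glucose transporter GLUT3 and lies at chr12:7919230-7936275 on the minus strand of GRCh38. It stood at 18.8, 21.0 and 17.0 CPM in laminin libraries 1 to 3 and at 12.1, 11.5 and 11.5 CPM in the acetazolamide libraries. The groups were well apart, and the log2 difference was 0.72 ± 0.12 as deposited and 0.71 ± 0.10 with the GC trend removed (SE, adjusted p = 0.714 and 0.0143).

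VEGFA, at chr6:43770184-43786487 on the plus strand, encodes the vascular endothelial growth factor A that directs vessel growth and is known as a hypoxia target. Its level was 68.6, 75.5 and 76.4 CPM with laminin 511-E8 and 51.9, 43.8 and 54.6 CPM with acetazolamide. Every laminin library exceeded every acetazolamide library, and the corrected log2 difference was 0.65 ± 0.09 (adjusted p = 0.0143).

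CA12 encodes carbonic anhydrase XII, a membrane-bound member of the enzyme family that acetazolamide inhibits, at chr15:63321378-63382161 on the minus strand. It measured 19.7, 24.6 and 21.0 CPM with laminin 511-E8 against 14.5, 13.7 and 15.2 CPM with acetazolamide, with 16.6, 14.4 and 17.1 CPM in the controls. The laminin libraries were the highest of all 9 and the corrected log2 difference was 0.64 ± 0.09 (adjusted p = 0.0143). Against the controls, laminin 511-E8 was 0.37 higher and acetazolamide 0.27 lower, and neither passed on its own (adjusted p = 0.145 and 0.916).

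Of the other carbonic anhydrases, 6 could be tested and 0 passed. CA9, a membrane enzyme known to be induced by hypoxia, stood at 34.9, 45.4 and 39.6 CPM with laminin 511-E8 and at 37.7, 29.6 and 42.0 CPM with acetazolamide. These deposited ranges overlapped. With the trend removed the log2 difference was 0.26 ± 0.12 (edgeR quasi-likelihood test, unadjusted p = 0.0439, adjusted p = 0.906). Of all 7 carbonic anhydrases, 2 were higher without overlap after removal and 1 as deposited, and both counts include CA12, which was picked as a called gene. The shares of all genes without overlap, in either direction, are 12.0% and 5.95%. Cytosolic CA2 lay between 13.3 and 14.9 CPM in all 6 libraries, with a log2 difference of -0.00 ± 0.10. CA3, CA13, CA5B and CA11 had log2 differences of 0.39, 0.12, 0.07 and -0.03, with adjusted p of 1 after rounding. The median of the 7 was 0.12 against 0.0088 over all genes tested.

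The other 4 higher genes have different roles. SOCS3, at chr17:78356778-78360077 on the minus strand, encodes a feedback inhibitor that is induced by cytokines of the gp130 family through STAT3. It measured 12.8, 18.0 and 11.9 CPM with laminin 511-E8 and 8.61, 6.18 and 9.58 CPM with acetazolamide. No libraries overlapped, and SOCS3 had both the largest increase among the 24 genes and the lowest adjusted p, with a log2 difference of 0.84 ± 0.19 as deposited and 0.92 ± 0.10 with the trend removed (adjusted p = 0.939 and 0.0098). It was the only one of the 24 to pass at a threshold of 0.01.

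SOD2 encodes the manganese superoxide dismutase of mitochondria, a known target of NF-kB. Its counts were the most abundant of the higher genes, at 582, 528 and 574 CPM with laminin 511-E8 and 360, 432 and 341 CPM with acetazolamide. The corrected log2 difference was 0.56 ± 0.08 (adjusted p = 0.0143). WTAP, on the opposite strand, shares exon sequence with SOD2 and held 24937 counts in the 6 libraries against 72795 of SOD2. The strand setting of the counting is not given, and WTAP itself had a log2 difference of 0.12 ± 0.09.

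IFI16, a nucleic acid sensor of the interferon response, stood at 96.0, 78.6 and 90.8 CPM with laminin 511-E8 and 59.8, 66.6 and 46.3 CPM with acetazolamide (log2 0.58 ± 0.09, adjusted p = 0.0364). VCAN encodes versican, a large proteoglycan of the matrix, and is the weakest of the 7. Its deposited levels of 180, 148 and 180 CPM against 126, 149 and 116 CPM overlapped, since acetazolamide library 2 exceeded laminin library 2. They separated only after the GC trend was removed, when the log2 difference was 0.38 ± 0.06 (adjusted p = 0.0497).

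Among the genes that fell, one group acts in fatty acid use. PPARGC1A encodes PGC-1alpha, a coactivator that drives mitochondrial biogenesis and fatty acid oxidation, at chr4:23755041-23904089 on the minus strand. It measured 16.4, 15.3 and 18.8 CPM with laminin 511-E8 against 24.3, 32.0 and 23.8 CPM with acetazolamide, where the controls had 27.2, 28.8 and 23.9 CPM. The laminin libraries were the lowest 3 of all 9, and the log2 difference was -0.62 ± 0.18 as deposited and -0.68 ± 0.10 with the trend removed (adjusted p = 0.999923 and 0.0157).

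LPIN1 encodes lipin 1, a phosphatidate phosphatase that also acts with PGC-1alpha, and its levels were 111, 131 and 115 CPM with laminin 511-E8 and 171, 179 and 184 CPM with acetazolamide. ACSL5, which activates long-chain fatty acids to their CoA esters, had 74.6, 70.3 and 78.5 CPM against 108, 111 and 110 CPM. Both genes were free of overlap by a wide margin, with corrected log2 differences of -0.55 ± 0.08 and -0.55 ± 0.07 (adjusted p = 0.0143 and 0.0131). ZDHHC6 shares exon sequence with ACSL5 on the opposite strand and had a log2 difference of -0.00 ± 0.07.

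Ion channels made up another group. KCNJ16, an inward rectifier potassium channel subunit of transporting epithelia, fell to 6.01, 4.97 and 6.73 CPM from 9.53, 11.3 and 8.85 CPM in the acetazolamide libraries (corrected log2 -0.78 ± 0.11, adjusted p = 0.0143). SCNN1B, the beta subunit of the epithelial sodium channel, stood at 21.8, 28.6 and 19.5 CPM against 35.2, 28.2 and 44.0 CPM. Here laminin library 2 and acetazolamide library 2 crossed in the deposited values, and the corrected log2 difference was -0.51 ± 0.07 (adjusted p = 0.0143).

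PDE1C, a phosphodiesterase that breaks down cyclic nucleotides under calmodulin control, was at 120, 98.5 and 113 CPM against 151, 177 and 131 CPM (log2 -0.50 ± 0.06, adjusted p = 0.0131). Its groups did not overlap.

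KRT19 is the keratin most used to mark bile ducts and it was the most abundant of the genes that fell, at chr17:41523617-41528308 on the minus strand. Its deposited levels were 396, 563 and 391 CPM with laminin 511-E8 and 696, 493 and 903 CPM with acetazolamide. Laminin library 2 exceeded acetazolamide library 2, and these libraries have opposite GC trends. With the trend removed the groups were apart, and the log2 difference went from -0.60 ± 0.20 to -0.48 ± 0.06 (adjusted p = 0.999923 and 0.0131). The 5 pseudogenes named after KRT19 held 78 counts together against 85525 of KRT19.

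SORBS2, an adaptor that links the actin cytoskeleton to adhesion sites, had closely spaced values, 36.6, 36.5 and 36.8 CPM against 53.1, 56.2 and 50.8 CPM (log2 -0.52 ± 0.07, adjusted p = 0.0143). RNF150, a transmembrane RING finger protein, stood at 237, 233 and 214 CPM against 335, 345 and 329 CPM (log2 -0.57 ± 0.09, adjusted p = 0.0396). PRR15L, a proline-rich protein, was at 6.81, 8.29 and 8.07 CPM against 13.3, 12.4 and 17.0 CPM (log2 -0.79 ± 0.11, adjusted p = 0.0143). None of these 3 genes overlapped between groups, which the rule for named genes required of them.

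A further set has other roles. GREB1, known as a target of the oestrogen receptor, had a log2 difference of -0.58 ± 0.08, and USP2, a deubiquitinase, one of -0.49 ± 0.07 (adjusted p = 0.0141 and 0.0143). ALOX15B, a lipoxygenase that oxidizes arachidonic acid, had the smallest decrease, -0.38 ± 0.06 (adjusted p = 0.0419), and its deposited levels of 54.8 to 83.1 CPM with laminin 511-E8 and 72.0 to 115 CPM with acetazolamide overlapped. USP2, VCAN and ALOX15B fall outside the rule for named genes and were added after their values were seen.

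Genes of matrix proteins, CHAD and SPOCK2, were also lower with laminin 511-E8. CHAD encodes chondroadherin, a leucine-rich matrix protein that binds integrins, at chr17:50464496-50468966 on the minus strand. It was at 1.43, 2.42 and 1.44 CPM with laminin 511-E8 and 4.45, 2.97 and 5.88 CPM with acetazolamide, a corrected log2 difference of -1.19 ± 0.15 (adjusted p = 0.0131). The deposited counts numbered only 458 over the 6 libraries, and ACSF2, which overlaps CHAD on the opposite strand with 3754 counts, had a log2 difference of -0.25 ± 0.10. SPOCK2, a testican proteoglycan, was at 10.7, 15.9 and 11.2 CPM against 22.1, 17.4 and 28.7 CPM (log2 -0.73 ± 0.09, adjusted p = 0.0131).

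MTMR10, a myotubularin-related protein at chr15:30938941-30991607 on the minus strand, had the largest difference of the 24, -2.00 ± 0.29 (adjusted p = 0.0143). In the corrected fit it was the one gene of the 24 in which acetazolamide lay farther from control than laminin 511-E8 did. It stood at 0.744, 0.332 and 0.582 CPM with laminin 511-E8, at 2.76, 1.95 and 1.70 CPM with acetazolamide and at 0.455, 0.380 and 0.479 CPM in the controls. Laminin and control libraries thus shared a range that acetazolamide libraries lay above. The value rests on 215 counts in the 6 treated libraries, and FAN1, which overlaps MTMR10 on the opposite strand with 291 counts, had a log2 difference of 0.84 ± 0.41.

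**Figure D3:**
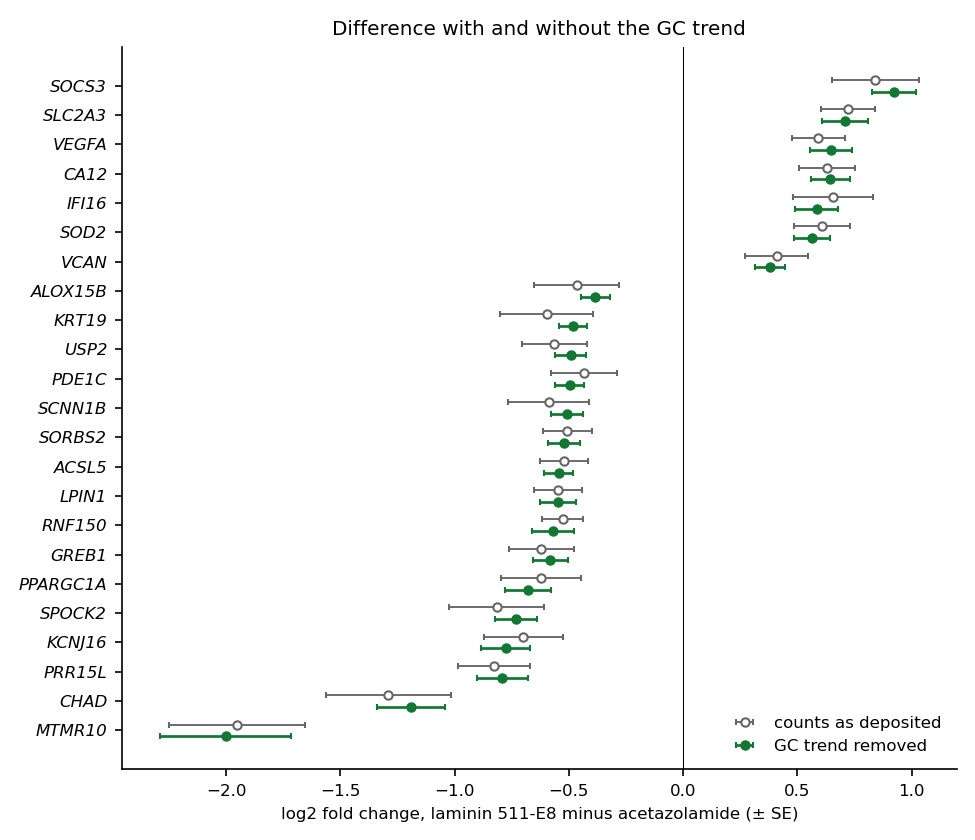
Log2 fold change of laminin 511-E8 minus acetazolamide for 23 of the 24 genes, with its standard error, as deposited (open grey circles) and with the GC trend removed (green circles). The estimates of a gene differ by at most 0.12, from -2.00 for MTMR10 to 0.92 for SOCS3 after removal, and in most genes the error bar is shorter after it.

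The 24 genes were also set against the controls, in the same fit with the trend removed. Both columns of values share the 3 control libraries and are given side by side only. For 23 of the 24 the laminin difference from control was larger in size than the acetazolamide difference. The laminin difference passed in 19 genes, 4 of the 7 higher and 15 of the 17 lower, and the acetazolamide difference passed in 0. The 24 were picked by the difference between the same laminin and acetazolamide libraries in this fit. These counts are therefore no separate support for a difference from control, and the share passing among all genes is not given here. For SOCS3 the pair of values was 0.79 and -0.14, for VEGFA 0.76 and 0.11, for PPARGC1A -0.66 and 0.02, for SPOCK2 -0.88 and -0.14, and for CHAD -1.30 and -0.11. MTMR10 reversed this order with 0.31 for laminin 511-E8 and 2.32 for acetazolamide (adjusted p = 0.934 and 0.0872). The treatments lay on opposite sides of control in 11 of the 24, among them CA12, SOD2 and USP2, at 0.37 and -0.27, 0.33 and -0.23, and -0.34 and 0.16, and none of these values of CA12, SOD2 and USP2 passed.

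**Figure D4:**
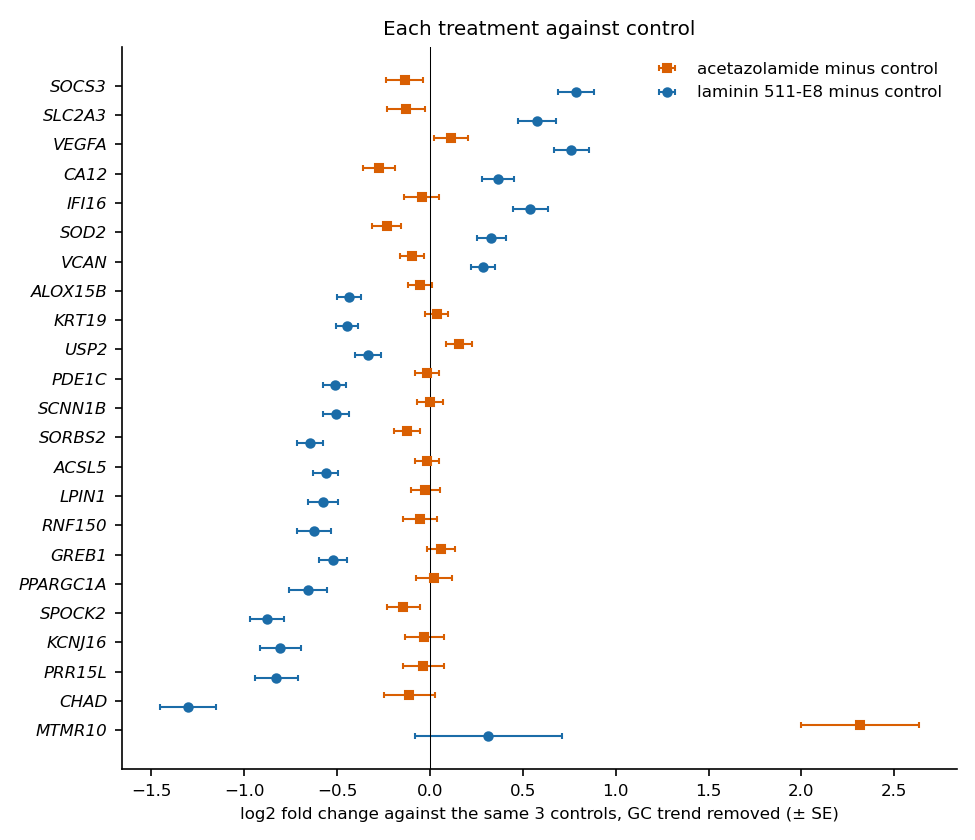
Each treatment against the same 3 controls for 23 of the 24 genes, as log2 fold change with its standard error and the GC trend removed, with laminin 511-E8 as blue circles and acetazolamide as orange squares. The orange squares lie between -0.27 and 0.16 in all genes shown but MTMR10, where acetazolamide stands at 2.32.

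The wider pathways were followed with 45 gene lists, by counts and medians beside the median of 0.0088 over all genes. The glycolysis and hypoxia list had 29 tested genes, of which 26 lay above 0 and 3 below, with a median of 0.15 (0.13 as deposited). SLC2A3 passed, and 11 of 29 had an unadjusted p under 0.05, all on the higher side, where the share among all genes is 2.57%. As deposited this was 2 of 29. The shares among all genes, 2.57% higher and 2.78% lower (0.975% and 1.36% as deposited), stand beside the counts of every list below. The lists were chosen with earlier results of these data known, so their counts are descriptive. Those below the threshold included PFKFB3, which makes the activator of phosphofructokinase (0.36 ± 0.10, adjusted p = 0.334), the hypoxia gene NDRG1 (0.30 ± 0.10), the pyruvate dehydrogenase kinase PDK1 (0.25 ± 0.09) and the enolase ENO1 (0.17 ± 0.06). These and the other genes of lists described below without having passed were picked after their values were seen, unless the rule named them.

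In the VEGF list, 7 of 7 genes lay above 0, VEGFA passed and the median was 0.15. The co-receptor NRP1 was at 345, 336 and 335 CPM with laminin 511-E8 and 288, 290 and 280 CPM with acetazolamide, without overlap, but its log2 difference of 0.26 ± 0.06 did not pass (adjusted p = 0.143).

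The cytokine and chemokine list had 18 tested genes, of which 0 passed. An unadjusted p under 0.05 was found for 7, all higher with laminin 511-E8 (5 as deposited). The share among all genes is 2.57% (0.975% as deposited). The median of the list was 0.17. IL6, the founding ligand of gp130, stood at 2.46, 2.98 and 2.66 CPM with laminin 511-E8 and 1.06, 1.71 and 1.15 CPM with acetazolamide. The groups were apart and the log2 difference of 1.08 ± 0.22 exceeded that of any gene called higher, but it did not pass (adjusted p = 0.122). The neutrophil chemokines CXCL3, CXCL2 and CXCL5 had log2 differences of 0.73 ± 0.23, 0.59 ± 0.17 and 0.46 ± 0.11, and the cytokine IL32 one of 0.44 ± 0.12. Not all cytokines lay on that side, as 7 of the 18, IL1B and IL1A among them, had values below 0.

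In the NF-kB list, 19 of 22 genes lay above 0, SOD2 passed, and 7 of 22 had an unadjusted p under 0.05, all higher (1 as deposited). The median was 0.15. The adhesion receptor ICAM1 (0.41 ± 0.10), the IkB family member BCL3 (0.54 ± 0.13), the deubiquitinase TNFAIP3 (0.28 ± 0.09) and the subunit NFKB1 (0.23 ± 0.07) did not pass. The inhibitor NFKBIA lay on the other side at -0.15.

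In the gp130 and STAT3 list, SOCS3 passed and 4 of 18 genes had an unadjusted p under 0.05, all higher. OSMR, the receptor for oncostatin M, was at 185, 183 and 179 CPM with laminin 511-E8 against 149, 151 and 142 CPM (0.32 ± 0.06, adjusted p = 0.109). The shared receptor IL6ST, also called gp130, had a log2 difference of 0.18 ± 0.05 and the target MYC one of 0.21 ± 0.06. The list's median of 0.04 was close to that of all genes.

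The list of EGF receptor ligands and feedback genes had 20 tested genes and 0 that passed, with 8 higher and 1 lower at an unadjusted p under 0.05 (2 and 0 as deposited) and a median of 0.19. The ligand EREG (0.32 ± 0.11) and the ERK phosphatase DUSP6 (0.55 ± 0.24) were on the higher side and the ligand TGFA, at -0.27, on the lower. Metallothioneins, small zinc-binding proteins, and their zinc-handling partners lay above 0 in 10 of 10 genes, with a median of 0.32, 5 at an unadjusted p under 0.05 and 0 passing. MT1X was at 24.6, 31.5 and 27.8 CPM against 19.5, 18.1 and 21.7 CPM (0.57 ± 0.17, adjusted p = 0.451).

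**Figure D5:**
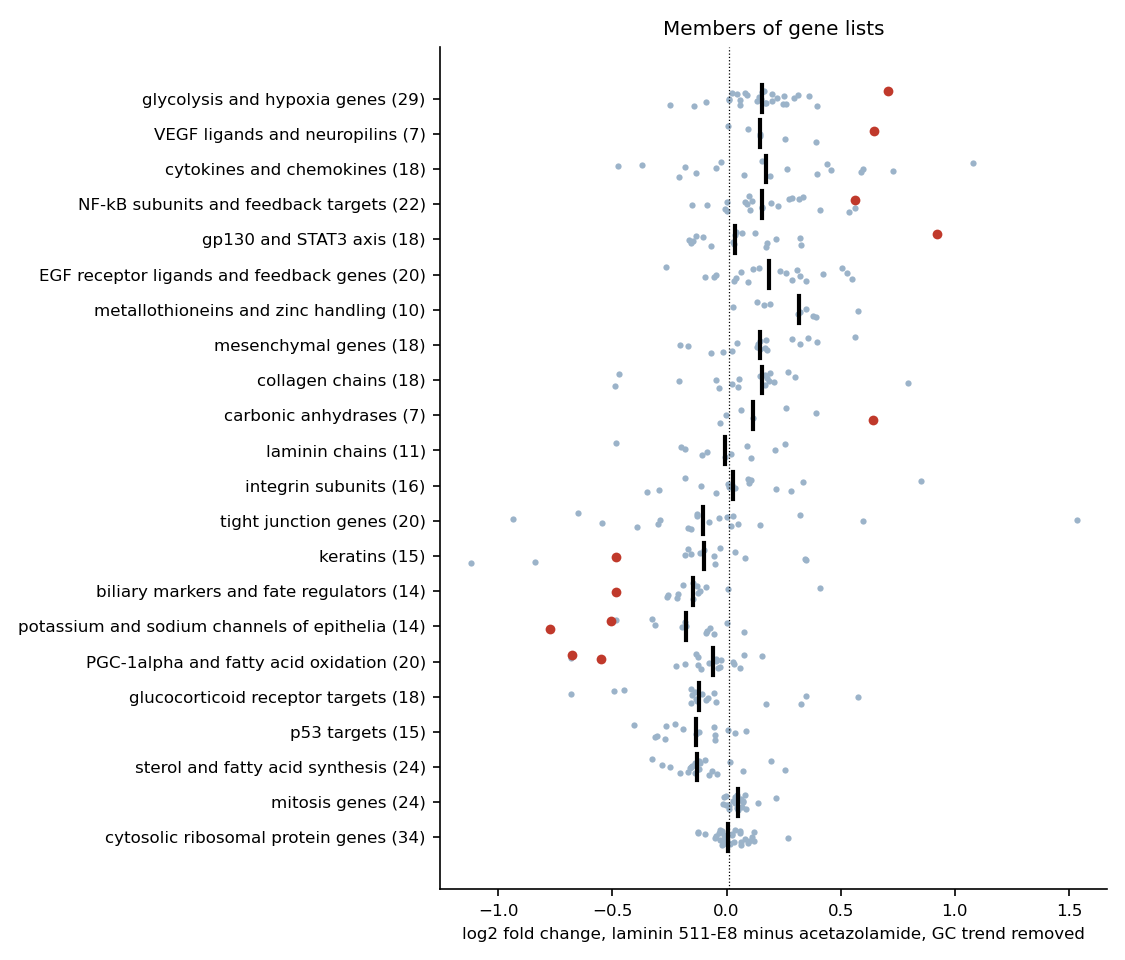
Members of 22 gene lists: the horizontal axis is the log2 fold change of laminin 511-E8 minus acetazolamide with the GC trend removed, each dot is a gene, red dots passed an adjusted p of 0.05, black bars are list medians, the dotted line is the median of all genes (0.0088) and the number of genes is in brackets. The vertical offset only separates the dots. Medians run from -0.18 for the channels of epithelia to 0.32 for the metallothioneins, and ribosomal protein genes lie at 0.00.

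Turning to the lists with lower values, 12 of 14 epithelial potassium and sodium channel genes lay below 0, KCNJ16 and SCNN1B passed, and the median was -0.18 (-0.24 as deposited). An unadjusted p under 0.05 was found for 5, all lower, where the share among all genes is 2.78%. Besides SCNN1B, the gamma and alpha subunits of the sodium channel had log2 differences of -0.33 ± 0.07 (SCNN1G, adjusted p = 0.122) and -0.18 ± 0.08 (SCNN1A, adjusted p = 0.866).

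The list of PGC-1alpha and fatty acid oxidation had 15 of 20 genes below 0. PPARGC1A and LPIN1 passed, 4 had an unadjusted p under 0.05, all lower, and the median was -0.06. PDK4, which shuts off pyruvate oxidation, stood at 2.97, 2.23 and 3.16 CPM against 3.99, 5.69 and 3.64 CPM (-0.68 ± 0.14, adjusted p = 0.129), and CPT1A, the gate of fatty acids into mitochondria, had -0.22 ± 0.08. The enzymes of the oxidation cycle itself, HADHA at -0.03, ACADM at 0.06 and ACADVL at -0.04, lay near 0.

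The 15 keratins tested had a median of -0.10. KRT19 passed, and 2 were higher and 5 lower at an unadjusted p under 0.05. KRT15 was at 1.60, 1.52 and 1.80 CPM against 3.50, 2.72 and 3.40 CPM (-0.84 ± 0.20, adjusted p = 0.228), while KRT17, a keratin of stressed epithelia, had 0.34 ± 0.12. Of the biliary markers and fate regulators, 12 of 14 lay below 0 with a median of -0.15 (-0.21 as deposited), and KRT19 was the only one to pass. The summed level of the 8 cholangiocyte markers was 2363 to 3125 CPM with laminin 511-E8 and 2517 to 3942 CPM with acetazolamide, which overlapped (exact two-sided permutation test, p = 0.2). The 4 mesenchymal markers VIM, FN1, COL1A1 and PDGFRB summed to 654 to 746 CPM against 534 to 672 CPM (p = 0.3 by the same exact test). The endothelial markers PECAM1, CDH5 and VWF summed to 0.400 to 0.886 CPM with laminin 511-E8 and 0.976 to 1.58 CPM with acetazolamide, without overlap but near the limit of detection (p = 0.1, the smallest the exact test allows), and their part in the results was not tested. Leukocyte marker sums overlapped, at 4.15 to 8.43 and 3.66 to 8.55 CPM. Over the 7 such tests on library values and marker sums, Benjamini-Hochberg adjusted p by the exact test lay between 0.467 and 0.9.

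Tight junction genes had 0 of 20 passing, a median of -0.10, and 1 higher and 3 lower at an unadjusted p under 0.05. The scaffold TJP3 came nearest, at 3.95, 5.49 and 3.59 CPM against 7.75, 5.16 and 9.82 CPM, with an overlap as deposited and a corrected log2 difference of -0.65 ± 0.11 (adjusted p = 0.0554). CLDN1, a sealing claudin, had -0.39 ± 0.08. On the other side were the adhesion molecule JAM3 at 0.60 (adjusted p = 0.838) and MARVELD2 at 1.53, which stood at 4.78 CPM in laminin library 2 and at most 0.976 CPM in the other 5. The glucocorticoid receptor targets had 14 of 18 genes below 0, a median of -0.12 and 0 that passed, with 2 higher (MT1X at 0.57 and MT2A at 0.35) and 3 lower at an unadjusted p under 0.05. TSC22D3, which encodes the glucocorticoid-induced leucine zipper, was at 90.4, 105 and 78.3 CPM against 134, 115 and 142 CPM, without overlap (-0.45 ± 0.08, adjusted p = 0.0516), and TFCP2L1 had -0.49 ± 0.09 (adjusted p = 0.0633). The p53 targets had 12 of 15 below 0, with 0 passing and a median of -0.14, and CDKN1A, the cell cycle inhibitor p21, had -0.31 ± 0.09.

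The genes nearest to laminin 511 itself were little apart. Its chains LAMA5, LAMB1 and LAMC1 had log2 differences of -0.09 ± 0.16, 0.21 ± 0.05 and 0.09 ± 0.06, of which LAMB1 was without overlap, at 341, 386 and 339 CPM against 324, 294 and 333 CPM, but did not pass (adjusted p = 0.267). The laminin 332 chain LAMB3 had -0.20 ± 0.06. All 11 laminin chains were tested, 0 passed and the median was -0.01.

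The laminin-binding integrin subunits ITGA3, ITGA6 and ITGB1 had log2 differences of 0.22 ± 0.07, 0.01 ± 0.09 and 0.10 ± 0.09. ITGB3, the beta 3 subunit of receptors for vitronectin and fibrinogen, stood out at 7.55, 6.96 and 6.71 CPM with laminin 511-E8 against 3.99, 3.74 and 4.67 CPM with acetazolamide. These groups did not overlap, and the log2 difference of 0.85 ± 0.15 came just short of the threshold (adjusted p = 0.0543). Over the 16 integrin subunits tested, 0 passed and the median was 0.03. The bicarbonate, chloride and acid transport genes, which serve the pathway that carbonic anhydrases feed, had 0 of 17 at an unadjusted p under 0.05 in either direction and a median of 0.01.

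The promoters of the 24 genes were searched for 4 short motifs to show whether genes that moved together share letters, in RefSeq windows of GRCh38.p14 that begin 250 bases before a gene start. Windows were found for 17 of the 24 genes, often several per gene and 41 in all, and both strands of the 250 bases were read. These windows lie at every gene start that RefSeq lists, and the end of the window recurred near the start of a GENCODE release 29 transcript in 23 of the 41. The stretches below hold the matches to the NF-kB, STAT and glucocorticoid motifs among these genes, with the match in capitals. The USP2 match fits the NF-kB motif when read on the strand opposite to the one printed.
USP2, chr11:119364343-119364372, minus strand: ggggagcgcgGGGAAGGCCCggcgggggag
SORBS2, chr4:185956573-185956602, minus strand: attagacatcTTCATAGAAaatcatgtcac
SORBS2, chr4:185811287-185811316, minus strand: ttgacttgtaTTCAGAGAActacatgaaaa
PPARGC1A, chr4:24473046-24473075, minus strand: gggctgtaGTACAGGCTGTCCccggcagcc
The PPARGC1A stretch belongs to a distant RefSeq start, 569 kb upstream of the GENCODE gene, and the USP2 stretch and the second SORBS2 stretch lie inside the GENCODE genes, at internal starts. The first SORBS2 stretch also lies inside the GENCODE gene, close to its 5' end. Which of these starts the cells used was not analysed here. The NF-kB motif, GGGNNTTNCC, was found in 5.07% of all 35116 windows, the STAT motif TTCNNNGAA in 6.57% and the glucocorticoid receptor motif GNACANNNTGTNC in 0.327%. Of the 41 windows of the called genes, 1 held the NF-kB motif, 2 the STAT motif and 1 the glucocorticoid motif. All 4 matches lie in genes that fell, which were 12 of the 17 genes with a window, and 0 of the 5 higher genes held any of these motifs. Such small counts cannot show a difference between the directions. The hypoxia core ACGTG, found in 18.5% of all windows, was in 4 of the 41. These were windows of CHAD, PPARGC1A, SORBS2 and SPOCK2, and 0 of the 5 higher genes held it. A match describes letters in a window and shows no binding.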

How the data were processed

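Messenger RNA of 9 libraries was captured by its poly(A) tail, and per the labels the values that the authors deposited are raw counts for each gene. The processing notes of the submitters name HTSeq 0.11.0, HISAT2 2.2.1, Trimmomatic 0.39 and FastQC 0.11.9, and the build GRCh38. The release of the annotation and the counting strand were not given in the sources used here. Of 61541 gene identifiers, 61369 were matched to symbols. Locations, lengths and GC content (58312 genes) are those of GENCODE release 29, the latter from the longest transcript.

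Counts were fitted with edgeR 4.0.16 in R 4.3.3 (filterByExpr by group, TMM scaling, robust quasi-likelihood fit, all 9 libraries, contrast of laminin 511-E8 minus acetazolamide, Benjamini-Hochberg adjustment, threshold 0.05). For the corrected fit, the loess trend (span 0.3) of each library's log2 CPM (prior count 2) with GC content was added to the offsets. Standard errors were computed from the fold change and the F statistic. DESeq2 1.42.0, limma 3.58.1, other scalings, filters, trends, the 6 treated libraries alone and the removal of each library were alternatives. Scripts were tested on simulated data with known changes.

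Replicates differed by more than counting noise, and none were merged. The members, gene lists and tests were chosen with earlier results of these data known. Named genes were, per direction, up to 12 with the largest corrected change among those that passed with at least 1 CPM and no overlap of deposited CPM, the 5 with the smallest p in the deposited counts, up to 4 passing members of each list, carbonic anhydrases, chains and receptors of laminin 511, and cell type markers. Plots were made with matplotlib 3.10.9 in Python 3.11.15. Some genes enter the counts and lists but are not reported here.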

Additional observations from a re-analysis of the deposited data

How the results depend on the processing

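With the counts as deposited, 0 genes passed under every edgeR and voom setting, also without any 1 library (0 to 0), and DESeq2 called 19, of which 14 were among the 24 genes of the corrected fit. With the GC trend removed, RLE and upper-quartile scaling, the legacy fit, a wider span, 20 GC bins, an added length trend, voom and both filters on low counts gave 18 to 28 genes. DESeq2 gave 92 (40 higher, 52 lower), and a fit on the 6 treated libraries gave 13, also with the GC trend fitted on these 6. A threshold of 0.01 left 1 gene, SOCS3. Without 1 library the count ranged from 0 to 27. It was 0 without acetazolamide replicate 1 or 3 or laminin replicate 1 or 3, 2 without laminin replicate 2, 19 without acetazolamide replicate 2, and 20, 27 and 22 without control replicates 1, 2 and 3. Where leaving out a library gave 0 calls, the lowest adjusted p was 0.0522 to 0.1035, with 565 to 773 genes at an unadjusted p under 0.05. The cause of the differences between settings was not tested.

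When the replicate number was fitted as a block, the corrected fit called 0 genes (lowest adjusted p 0.0947, 661 at an unadjusted p under 0.05), 0 in the 6 treated libraries alone and 0 in the deposited counts. The deviations of same-numbered laminin and acetazolamide libraries correlated at -0.03, -0.46 and -0.34 after correction, and no library correlated best with its own number. The highest values were 0.49 for laminin 2 with acetazolamide 3, 0.31 for laminin 3 with acetazolamide 2 and 0.26 for laminin 1 with acetazolamide 2. Deviations within groups of 3 cannot show whether libraries of a number shared a batch, which was not tested. The 24 genes kept their direction in every alternative in which they were tested, which their choice on the same libraries largely fixes. None of the named genes reversed a call. The medians of the glycolysis, NF-kB, cytokine, channel, biliary and sterol lists kept their sign in all settings. Those of the laminin chains, immediate early genes, ribosomal proteins and several other lists did not. The collagen and mesenchymal medians kept it in all 25 corrected settings but only in 18 and 19 of the 20 settings as deposited. Differences under about 0.12 on the log2 scale, the median standard error of the corrected fit, are within its error.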

Other observations

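Over all 3 groups, genes whose 3 libraries lay wholly above or wholly below the other 6 were counted after removal of the GC trend. Laminin 511-E8 stood apart in this way in 687 of 15737 genes (4.37%), 279 above and 408 below, acetazolamide in 304 (1.93%), 95 above and 209 below, and control in 522 (3.32%), 336 above and 186 below. As deposited the numbers were 328, 171 and 332 of 15997. Of the 24 genes that passed between the treatments, laminin 511-E8 stood apart from both other groups in 23, and acetazolamide in 5, which were SOCS3, CA12, SOD2, USP2 and MTMR10. All 24 were picked on the difference between the treatments, and in all 24 the treated groups did not overlap after removal. These counts are thus partly fixed by that choice and cannot be set against the shares over all genes.

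Several genes that are in none of the lists came near the threshold on the lower side and were picked after their values were seen. SMIM24, a small integral membrane protein, was at 2.69, 3.50 and 2.40 CPM with laminin 511-E8 against 5.05, 4.27 and 6.06 CPM with acetazolamide (log2 -0.75 ± 0.13, adjusted p = 0.0633). GRAMD2A, a protein of contact sites between the endoplasmic reticulum and the plasma membrane, had -0.41 ± 0.07, the calmodulin-dependent kinase CAMK1D -0.56 ± 0.10 and the selenium carrier SELENOP -0.44 ± 0.08. Farther from the threshold, the aldo-keto reductase AKR1B10, of the NRF2 list, stood at 3.03, 3.08 and 2.58 CPM against 4.62, 4.55 and 4.55 CPM, with a log2 difference of -0.64 ± 0.13 (adjusted p = 0.122).

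Further lists of matrix, mesenchymal and clotting genes had 0 that passed. At an unadjusted p under 0.05, 2.57% of all genes were higher and 2.78% lower. Of 18 collagen chains, 6 were higher and 1 lower at an unadjusted p under 0.05, with a median of 0.16 that was 0.03 as deposited, and COL27A1 stood at 5.38, 7.39 and 5.90 CPM against 3.96, 3.41 and 4.30 CPM (0.79 ± 0.16, adjusted p = 0.122). Of 18 mesenchymal genes, 6 were higher and 0 lower, with a median of 0.14 (0.05 as deposited), and the transcription factors ZEB2 and SNAI2 had 0.56 ± 0.13 and 0.32 ± 0.08. Tissue factor, F3, had 0.44 ± 0.09, in a list of clotting and plasminogen activation genes with 3 of 14 higher and a median of 0.05.

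Lists of growth and housekeeping functions showed little. Sterol and fatty acid synthesis had 20 of 24 genes below 0 and a median of -0.13, with 0 at an unadjusted p under 0.05. Mitosis, DNA replication, cytosolic ribosomal protein, mitochondrially encoded and nuclear oxidative phosphorylation genes also had 0, with medians of 0.05, 0.01, 0.00, 0.11 and -0.06. The YAP/TAZ, SRF and actin, focal adhesion and immediate early lists had 0 that passed and medians of 0.04, 0.04, 0.03 and 0.03. Acute-phase and antimicrobial genes had 3 higher and 2 lower of 10 at an unadjusted p under 0.05 and a median of 0.26, with LCN2 at -0.82 and S100A9 at 0.49. Interferon-stimulated genes had 4 higher and 1 lower of 18 and a median of 0.11, and heat shock and unfolded protein genes had medians of 0.10 and 0.05. Lists of hemidesmosome, cadherin and desmosome, TGF-beta, matrix protease, NRF2 and reference genes had medians between -0.03 and 0.07, and the Notch list had -0.15. Markers of hepatocytes, endothelium and leukocytes had 6, 4 and 3 genes tested, medians of 0.18, 0.10 and 0.01, and 0 that passed.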
